A study of Mus musculus with 24 samples.

Results

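Crypts that had lost both Apc and Nle1 were compared with Control crypts 1 day after induction. The members were chosen by their labels alone: the 3 libraries titled for the double loss (ApccKO;NlecKO) and the 3 titled Control at day 1, which are 6 of the 24 libraries of the series. The series also holds the single losses, ApccKO and NlecKO, and the same 4 genotypes at day 2 (48 h), with 3 mice in each of 8 groups. All mice, Control included, were 5 to 10 weeks old and had tamoxifen at 56 mg/kg into the peritoneum on 3 days in a row, and polyA RNA was sequenced from crypts of the jejunum taken 24 h after induction for day 1. The promoter or cell type that drives the recombinase, the alleles that the Control mice carried, the strain and the sex are not stated in the labels. Crypts hold every cell type of the crypt wall, so in these bulk samples fewer cells of a type and less RNA per cell cannot be told apart.

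Apc is the scaffold of the complex that marks β-catenin for destruction. Without it β-catenin stays in the nucleus with TCF and LEF factors, and crypt cells switch on Wnt target genes. Nle1 (Notchless) is an assembly factor of the large ribosomal subunit. When large subunit assembly fails, free ribosomal proteins such as Rpl5 and Rpl11 bind Mdm2, and the p53 protein it normally holds down accumulates and turns on genes of arrest and cell death. Stem cells at the crypt base depend on Wnt signals, and Paneth cells beside them supply Wnt ligands and defensins.

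Levels are CPM, counts per 1 M counts of the library, after scaling for library composition, and each trio of values follows the replicate numbers 1, 2 and 3. A gene is called higher or lower where the adjusted p of edgeR's quasi-likelihood test is under 0.05. A log2 fold change is given with an approximate standard error, its size divided by the square root of the F statistic of that test. The 6 libraries held 18.49 to 20.48 M estimated counts, and 16552 of the 37620 listed genes were tested. Pairs of libraries of the same group correlated at 0.9809 to 0.9933 on the log scale. Double knockout replicate 3 stood apart in some genes. It held 0.32 CPM of Gm8730, a pseudogene-like copy of Rplp0, where the other 5 libraries held 66.6 to 100 CPM. Low Gm8730 was not particular to this mouse: the gene's mean was 17.9 CPM in ApccKO, beside 86.6 CPM in NlecKO. The same mouse held more enterocyte, interferon and MHC class II transcripts than the other double knockout mice. The numbers in the library codes of mice with Apc (630 to 635) and without it (641 to 648) do not interleave at day 1, and what the codes record is not given, so whatever they stand for cannot be told apart from the loss of Apc. Each of the 4 day 1 groups had 1 of 3 libraries with Y-linked transcripts.

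The 2 targeted genes were read first. Nle1 stood at 12.3, 8.66 and 7.79 CPM in the double knockout mice and at 22.5, 24.4 and 27.6 CPM in Control. The groups did not overlap, and Nle1 fell by 1.36 ± 0.16 on the log2 scale (adjusted p = 2.5e-06). Apc stood at 146, 142 and 146 CPM against 131, 127 and 131 CPM in Control. Its log2 fold change was 0.15 ± 0.08 (adjusted p = 0.13), and such a total over all exons would not reveal that some exons were removed, so it checks nothing about that label. Epithelial identity was checked with 9 markers, all of them detected. Epcam held 1050, 771 and 924 CPM in the double knockout and 1120, 1120 and 1130 CPM in Control, and the adherens junction cadherin Cdh1 held 1250, 1020 and 1100 CPM against 956, 934 and 938 CPM. Of the 9, 2 were called higher and 3 lower, with a median log2 fold change of -0.31. With the 6 compared libraries alone 1 was higher and 1 lower, and 1 was lower without Control replicate 1 or 3. Krt18, a keratin of simple epithelia, stood at 805, 720 and 695 CPM against 202, 253 and 260 CPM, and rose by 1.63 ± 0.19 (adjusted p = 2.1e-06).

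The double loss changed 7099 of the 16552 genes tested (42.9%), 3662 of them higher (22.1%) and 3437 lower (20.8%). Of the called genes 2476 changed by at least 2-fold, 1181 higher and 1295 lower. The libraries of the groups did not overlap for 7978 genes (48.2%). A call alone is therefore a common event here, and each list below is read against these shares. The number of calls ran from 5078, with only the 6 compared libraries in the fit, to 7243 over all alternatives.

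**Figure D1:**
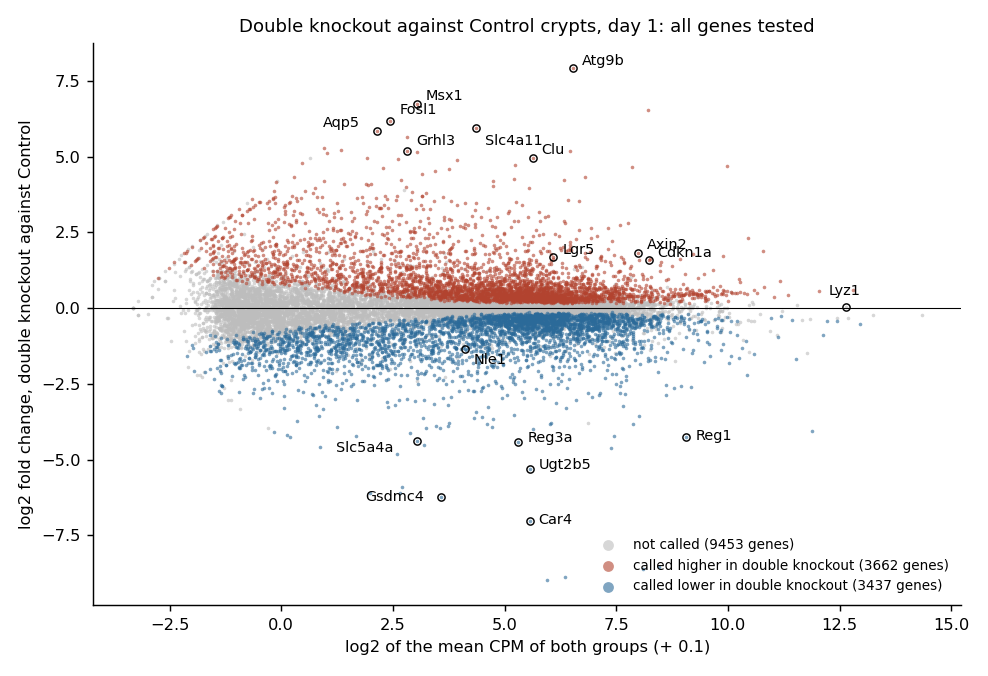
Each point is 1 tested gene; the horizontal axis is the log2 mean CPM of both groups (0.1 added) and the vertical axis the log2 fold change, double knockout against Control at day 1. Red points (3662) were called higher and blue points (3437) lower, grey points were not called; Atg9b lies at the top and Car4 among the lowest, while Lyz1, at the right, lies on the zero line.

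Genes nearly silent in Control crypts led the increases. Atg9b, an autophagy protein, stood at 192, 146 and 217 CPM in the double knockout mice and at 0.383, 0.711 and 0.886 CPM in Control (7.92 ± 0.87, adjusted p = 2.3e-06). Slc4a11, a membrane transporter, stood at 49.7, 32 and 39.1 CPM against 0.437, 0.711 and 0.541 CPM (5.93 ± 0.67, adjusted p = 2.7e-06). Mcam, a cell adhesion molecule, stood at 160, 178 and 180 CPM against 2.84, 6.73 and 4.53 CPM (5.17 ± 0.45, adjusted p = 1.7e-07). The rule that named these genes asks for groups that do not overlap. For 3 of the 10 most raised genes the Control libraries held only 3 counts between them, so their fitted fold change depends on the prior count and a ratio of counts is given. The homeobox gene Msx1, with 21.6, 7.03 and 19.5 CPM in the double knockout, had a ratio of 303 (95% interval 103 to 1470, counting error only). The AP-1 subunit Fosl1, with 9.96, 9 and 12.9 CPM, had a ratio of 200 (68 to 970). Of the Fosl1 transcript sequence 54.5% is shared with Ccdc85b, and from which of these genes the reads came was not tested. The water channel Aqp5 varied most among the double knockout mice, at 18.4, 4.88 and 2.4 CPM, with a ratio of 167 (56.9 to 813). Gulo (5.65 ± 0.63), the last enzyme of vitamin C synthesis, the epithelial transcription factor Grhl3 (5.19 ± 0.71) and Faim2 (5.15 ± 0.64), an inhibitor of Fas-driven death, completed the group, with adjusted p from 1.8e-06 to 2e-05. The remaining gene by this rule, Rps3a, is described with the ribosomal proteins, since its reads are shared with copies.

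The 10 most lowered genes were chosen by the same rule. Car4, a carbonic anhydrase of the cell surface, stood at 0.427, 0.957 and 0.48 CPM against 142, 67.9 and 70.9 CPM in Control (-7.02 ± 0.42, adjusted p = 2.2e-09). Amph, an endocytosis protein, stood at 0.237, 0 and 0.107 CPM against 15.6, 13 and 9.45 CPM (-5.91 ± 0.53, adjusted p = 9.8e-08). Reg1 stood at 68.2, 44.5 and 49.5 CPM against 1220, 1140 and 718 CPM (-4.24 ± 0.63, adjusted p = 4.7e-05). Reg1 and the antibacterial Reg3a (-4.42 ± 0.61) are secreted lectins. Slc5a4a, a relative of the glucose transporters, was more variable in Control, at 31.7, 9.74 and 5.31 CPM against 0.19, 0.526 and 1.28 CPM (-4.39 ± 0.93, adjusted p = 0.0011). The other 5 belong to families whose transcripts share much of their sequence, so the authors' counting could split their reads. The gasdermin C genes Gsdmc4 and Gsdmc2 had log2 fold changes of -6.25 and -4.83, and the family as a whole went from a mean of 37.4 to 0.614 CPM. The glucuronosyltransferases, which make drugs and bilirubin soluble, behaved alike: Ugt2b5 with its partners went from 93.5 to 2.98 CPM, and the Ugt1a cluster that holds Ugt1a1 and Ugt1a9 from 698 to 137 CPM.

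Wnt targets rose. Of 31 measured targets 23 were higher and 2 lower, with a median log2 fold change of 1.59, and their summed level was 5180, 5660 and 5170 CPM in the double knockout mice against 1820, 2190 and 2240 CPM in Control. Among the feedback inhibitors 6 of 10 were higher and none lower. Axin2, a scaffold of the destruction complex and the usual readout of the pathway, stood at 354, 443 and 393 CPM against 96.8, 115 and 123 CPM (1.83 ± 0.15, adjusted p = 3.2e-08). Nkd1 stood at 54, 81.4 and 48.4 CPM against 6.01, 7.55 and 6.15 CPM (3.2 ± 0.26, adjusted p = 6.5e-08). Notum, a secreted enzyme that inactivates Wnt ligands, was low in both groups, at 6.78, 3.11 and 5.71 CPM against 0.547, 0.93 and 0.394 CPM (2.89 ± 0.33, adjusted p = 1.2e-06). All 3 inhibitors were above Control in each double knockout mouse. Of 8 transcription factors 7 were higher and 1 lower. Lef1 (3.30 ± 0.28) and Tcf7 (1.89 ± 0.13), which bind β-catenin on DNA, both rose, and Myc stood at 227, 258 and 248 CPM against 70.8, 85.7 and 96.9 CPM (1.53 ± 0.20, adjusted p = 7.7e-06). Sox9 (2.23 ± 0.20) and Sp5 (2.38 ± 0.21), named after their values were seen, rose too. Of 7 receptors and surface proteins 5 were higher and 1 lower. The ubiquitin ligase Rnf43, which removes Wnt receptors, varied least, at 259, 272 and 280 CPM against 79, 79.7 and 79.7 CPM (1.76 ± 0.09, adjusted p = 4.9e-11). The cell surface receptor Cd44 stood at 448, 346 and 343 CPM against 42.1, 55.9 and 62.9 CPM (2.82 ± 0.24, adjusted p = 1.1e-07). The remaining 6 targets, cyclins, secreted and other proteins, held 5 higher and none lower, with the cell cycle entry cyclin Ccnd1 at 383, 408 and 375 CPM against 99.6, 121 and 166 CPM (1.59 ± 0.26, adjusted p = 8.7e-05). The targets called lower were Ppard (-0.44 ± 0.14, adjusted p = 0.018) and Met (-0.43 ± 0.10, adjusted p = 0.0017), both named after their values were seen. The count of lower targets ranged from 1 to 3: it was 1 with the compared libraries alone, without Control replicate 1 and without double knockout replicate 2.

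The word CTTTGAT, to which TCF and LEF factors bind, was looked for on both strands in the 250 bases before the start of each target. It was found in 3 of the 30 windows that RefSeq (GRCm38.p6) gives for 21 of the 31 targets (10.0%, exact 95% interval 2.1 to 26.5), against 3.2% of all 32851 windows. These are the 3 sites, with 20 bases on either side where the window allows, the word in capitals and the strand of the gene; they are shown because the 3 genes carry the word this close to their start, and a match is a description of the letters only.
Tnfrsf19, chr14:61038163-61038209, minus strand: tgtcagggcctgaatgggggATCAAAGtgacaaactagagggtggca
Sp5, chr2:70474799-70474845, plus strand: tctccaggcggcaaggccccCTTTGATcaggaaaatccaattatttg
Mmp7, chr9:7692091-7692120, plus strand: aacATCAAAGtagctctgagaacaatcgcc
ATCAAAG is the same word read on the opposite strand. Tnfrsf19, a receptor of the tumour necrosis factor family, stood at 74.3, 111 and 77.7 CPM against 4.65, 6.95 and 5.12 CPM (3.95 ± 0.27, adjusted p = 5.9e-09). The Paneth cell protease Mmp7 stood at 351, 352 and 262 CPM against 78.2, 225 and 151 CPM (1.09 ± 0.31, adjusted p = 0.0093), and its call was lost when only the compared libraries were fitted (adjusted p = 0.082).

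Markers of the crypt base stem cell rose with the Wnt targets, and some genes stand in both lists. Of 24 measured markers 21 were higher and none lower, with a median of 1.21; 1 was lower without double knockout replicate 2. Their summed level was 6040, 7370 and 5100 CPM against 2370, 3130 and 3220 CPM. The R-spondin receptor Lgr5 stood at 81.4, 158 and 72 CPM against 29.5, 35.3 and 32.5 CPM (1.68 ± 0.26, adjusted p = 5.5e-05), with replicate 2 well above the other double knockout mice. Igfbp4 stood at 415, 328 and 261 CPM against 42.7, 54.6 and 52.3 CPM (2.74 ± 0.17, adjusted p = 1.4e-09). The cholesterol ester enzyme Soat1 stood at 126, 135 and 130 CPM against 28.9, 40 and 37.3 CPM (1.88 ± 0.13, adjusted p = 3.3e-09). The transcription factor of stem cell fate Ascl2 (1.82 ± 0.17) and the receptor Ephb3 (1.91 ± 0.17), both named after their values were seen, rose by a like amount. Smoc2 gained less, at 171, 230 and 135 CPM against 89.9, 102 and 110 CPM (0.82 ± 0.19, adjusted p = 0.0016). Olfm4 had, per transcript length, a mean of 712 TPM in Control and 1210 TPM in the double knockout, where Lgr5 had 11 and 41.4 TPM. In counts, Olfm4 stood at 2070, 2890 and 1670 CPM against 1010, 1490 and 1560 CPM (0.71 ± 0.24, adjusted p = 0.024). The highest Control value of Olfm4 lay just under the lowest double knockout value, and the call was lost without Control replicate 1 (adjusted p = 0.12), without double knockout replicate 2 (0.14) and with the compared libraries alone (0.061).

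Factors that make ribosomes were higher almost without exception. Of 15 genes of RNA polymerase I and its rRNA transcription 13 were higher and none lower, with a median of 0.62. Polr1a, the large catalytic subunit, stood at 144, 142 and 123 CPM against 61.8, 71.9 and 80 CPM (0.93 ± 0.16, adjusted p = 9.6e-05). The initiation factor Rrn3 stood at 72.5, 70.6 and 70.8 CPM against 35.6, 42.2 and 43.8 CPM (0.81 ± 0.11, adjusted p = 6.2e-06). The 2 not called were Ubtf (0.04 ± 0.08) and Taf1c (0.25 ± 0.14). Of 33 small subunit assembly factors 32 were higher, with a median of 0.63 and the exception of Dcaf13 (-0.05 ± 0.08). Nop56, a core protein of the particles that methylate rRNA, stood at 284, 294 and 252 CPM against 128, 150 and 171 CPM (0.89 ± 0.14, adjusted p = 3.9e-05), and the methyltransferase Fbl beside it rose by 0.63 ± 0.15 (adjusted p = 0.002). Of 42 large subunit assembly factors, the list that Nle1 acts with, 39 were higher and none lower, with a median of 0.64. Npm1, the nucleolar chaperone, stood at 1040, 985 and 892 CPM against 358, 468 and 521 CPM (1.12 ± 0.16, adjusted p = 2e-05). Mdn1, the large ATPase that acts on Nle1 and Wdr12 to mature the subunit, stood at 174, 185 and 153 CPM against 105, 130 and 140 CPM (0.45 ± 0.17, adjusted p = 0.04), a call lost in 5 alternatives. Wdr12 itself rose by 0.90 ± 0.16 (adjusted p = 0.00014). The 3 not called were Sdad1 (0.20 ± 0.08), Eftud1 (-0.23 ± 0.11) and Eif6 (0.11 ± 0.09), and the last of these, at 226, 195 and 223 CPM against 209, 185 and 202 CPM, is the factor that keeps immature large subunits from joining. All of the assembly factors not called, save Eif6, were named after their values were seen.

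Myc and its partner Max bind the word CACGTG, and 8 of 90 windows of the 3 assembly lists together (8.9%, exact 95% interval 3.9 to 16.8) held it in the 250 bases before the start, against 6.0% of all windows. When the 50 bases after the start were added, 21.1% of the list windows and 7.2% of all windows held it. RefSeq gave windows for 77 of the 92 genes. The sites of the 3 genes with the word and the smallest p are printed in the same way, on GRCm38.p6; the window of Rrn3 holds the word at 2 places, of which 1 is printed.
Rrn3, chr16:13780631-13780676, plus strand: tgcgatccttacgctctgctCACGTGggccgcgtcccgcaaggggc
Utp18, chr11:93885767-93885806, minus strand: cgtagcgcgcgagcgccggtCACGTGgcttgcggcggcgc
Nop2, chr6:125131803-125131848, plus strand: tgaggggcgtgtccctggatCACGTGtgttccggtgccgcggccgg
Utp18, a small subunit processome protein, rose by 0.71 ± 0.12 (adjusted p = 8.5e-05), and the rRNA methyltransferase Nop2, at 165, 166 and 151 CPM against 87.7, 90.1 and 102 CPM, rose by 0.78 ± 0.13 (adjusted p = 0.00012).

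Ribosomal protein genes moved together by a smaller amount. Of 78 measured genes 73 were higher and none lower, with a median of 0.48, and the small (28 of 32, median 0.47) and large subunit genes (45 of 46, median 0.49) had near-equal medians. Their summed level was 54100, 57100 and 49900 CPM in the double knockout mice against 33300, 36100 and 38800 CPM in Control. Rpl11, one of the Mdm2-binding proteins, stood at 333, 365 and 287 CPM against 222, 228 and 238 CPM (0.52 ± 0.10, adjusted p = 0.00048). Rps20 stood at 692, 705 and 614 CPM against 444, 465 and 494 CPM (0.52 ± 0.08, adjusted p = 3.7e-05). Rpl13a rose by 0.85 ± 0.11 (adjusted p = 7.1e-06). Single values in this list, and the summed level that holds them, are uncertain where transcripts share sequence with copies. Rps3a stood at 586, 628 and 547 CPM against 5.57, 6.13 and 6.74 CPM, a log2 fold change of 6.55, and its mean was 510 ± 18 CPM (SD, n = 3) in ApccKO and 7.13 ± 1.3 CPM (SD, n = 3) in NlecKO. Summed with its copies it went from 720 to 1010 CPM, a log2 change of 0.49. Rpl5 with its copies went from 815 to 1120 CPM (0.46). Rplp0 stood at 1560, 1610 and 2720 CPM against 64.3, 77.9 and 84.6 CPM, and with its copies the sum still went from 167 to 2010 CPM. The rule for partners asks that at least 10% of a gene's sequence words be shared, so a copy below that share is not in these sums, and the cause of these shifts was not tested.

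Nucleotide synthesis genes followed the assembly factors, with 15 of 19 higher, none lower and a median of 0.47. Cad, the enzyme that starts pyrimidine synthesis, stood at 384, 399 and 331 CPM against 156, 177 and 201 CPM (1.06 ± 0.18, adjusted p = 0.00015). Ctps, which makes CTP, rose by 0.99 ± 0.16 (adjusted p = 4.6e-05), and Ppat, the first step of purine synthesis, by 0.75 ± 0.13 (adjusted p = 0.00012).

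**Figure D2:**
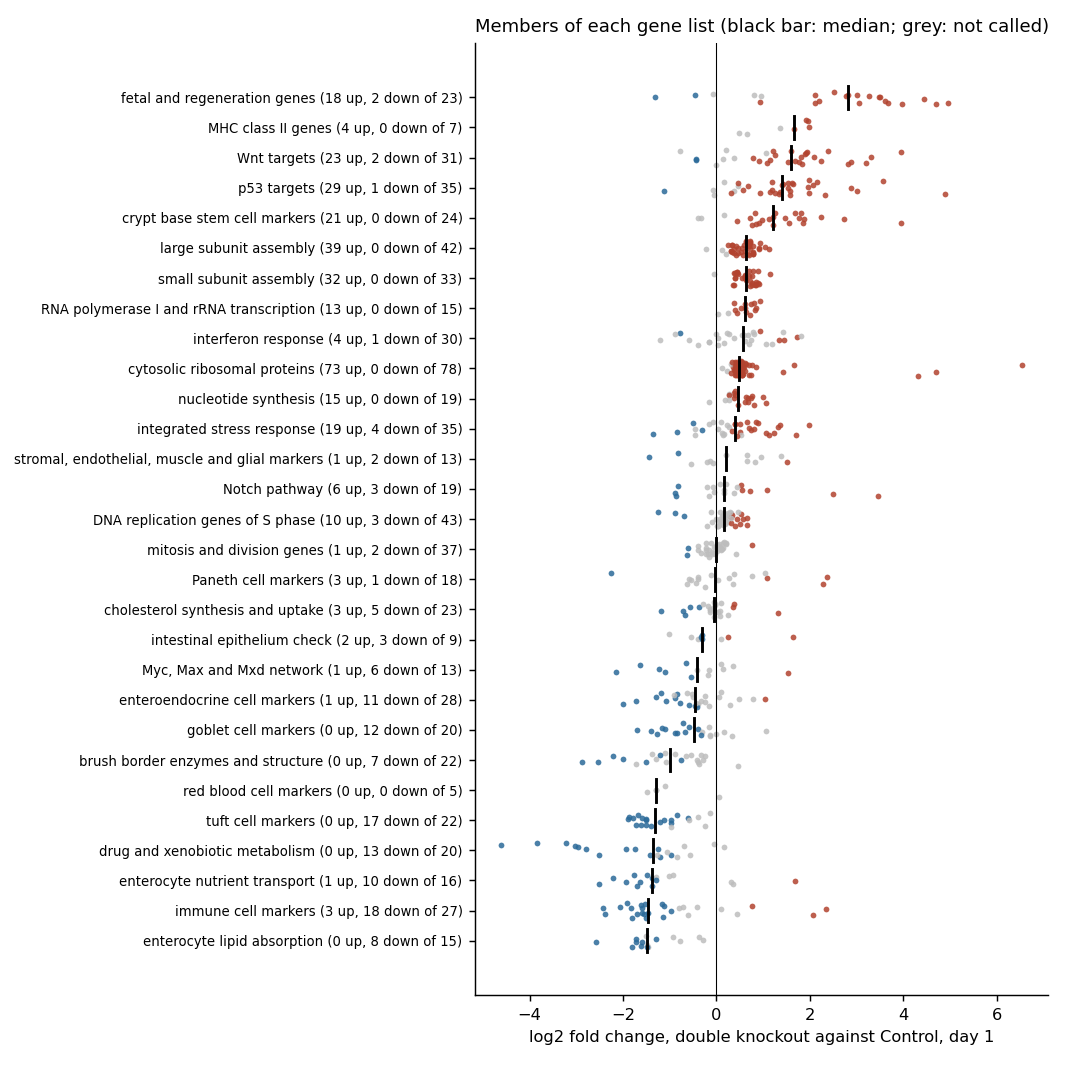
Each row is 1 of the 29 gene lists and each point 1 tested member; the horizontal axis is the log2 fold change, double knockout against Control at day 1, and the black bar the median of the list. Fetal and regeneration genes (median 2.82), MHC class II genes (1.67) and Wnt targets (1.59) have the medians farthest to the right. The medians of the lists of mature absorptive, tuft and immune cells lie to the left of 0.

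Targets of p53 rose as a group. Of 35 measured targets 29 were higher and 1 lower, with a median of 1.40, and the number higher was 27 to 29 in every alternative. Their summed level was 3960, 4310 and 4430 CPM against 1550, 1740 and 1630 CPM in Control. Of 12 genes of feedback and arrest 10 were higher. Cdkn1a, the inhibitor of cyclin-dependent kinases known as p21, stood at 393, 428 and 524 CPM against 164, 153 and 133 CPM (1.58 ± 0.21, adjusted p = 8.5e-06). Mdm2 itself stood at 132, 153 and 158 CPM against 52.2, 63 and 50.6 CPM (1.42 ± 0.18, adjusted p = 5.3e-06). Ccng1 stood at 448, 452 and 488 CPM against 119, 172 and 163 CPM (1.61 ± 0.18, adjusted p = 1.4e-06). Zmat3, an RNA-binding target, rose by 2.33 ± 0.20 (adjusted p = 8.5e-08). Sesn1, named after its values were seen, was the only target called lower, at 27.3, 27.5 and 29.1 CPM against 78.5, 54.6 and 49.1 CPM (-1.12 ± 0.31, adjusted p = 0.0078). Of 12 genes of death and death receptors 10 were higher and none lower. Phlda3, which restrains the kinase Akt, stood at 147, 176 and 153 CPM against 7.49, 16.9 and 15.6 CPM (3.56 ± 0.40, adjusted p = 2.4e-06). Bax, which opens the mitochondrial membrane, stood at 280, 346 and 281 CPM against 87.3, 98.1 and 106 CPM (1.63 ± 0.16, adjusted p = 2.3e-07). The receptor Eda2r rose by 2.15 ± 0.28 (adjusted p = 1.1e-05), and Bbc3 (Puma), named after its values were seen, by 2.06 ± 0.27 (adjusted p = 7.8e-06). The members of that group not called were Fas (-0.05 ± 0.25) and Pmaip1 (0.37 ± 0.23), also named after their values were seen. Of 11 genes of metabolism, stress and repair 9 were higher, among them Ephx1 (1.54 ± 0.16) and Dcxr (1.58 ± 0.14). Plk2 (3.00 ± 0.35), Gdf15 (2.89 ± 0.38) and Zfp365 (4.90 ± 0.62), named after their values were seen, had adjusted p from 3.4e-06 to 1.2e-05.

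**Figure D3:**
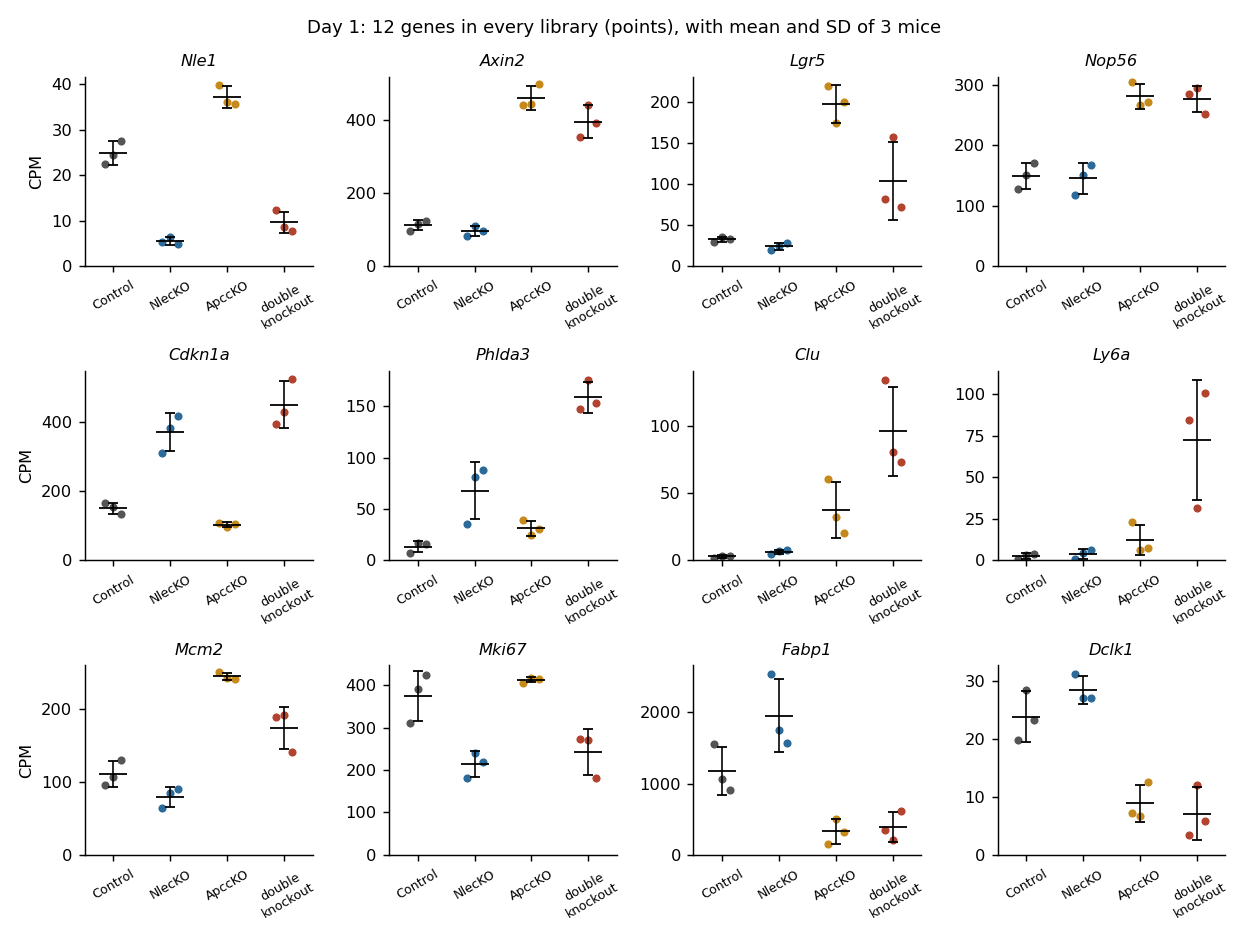
CPM of 12 genes in each day 1 library, with the 4 genotypes along the horizontal axis of each panel; points are single mice, and the lines are the mean and SD of 3. Axin2 and Nop56 in the double knockout lie near the ApccKO values, Cdkn1a near the NlecKO values, and Phlda3, Clu and Ly6a above both.

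Genes of fetal intestine and regenerating epithelium had the highest median of the 29 lists. Of 23 measured genes 18 were higher and 2 lower, with a median of 2.82, and their summed level was 1310, 878 and 1100 CPM against 233, 262 and 275 CPM. The number lower fell to 0 without double knockout replicate 2 and to 1 when any other of the 6 libraries was left out. Clu, which marks revival stem cells after damage, stood at 134, 80.3 and 73 CPM against 1.97, 3.34 and 3.59 CPM (4.96 ± 0.50, adjusted p = 1e-06). Ly6a (Sca-1) stood at 84.4, 31.8 and 101 CPM against 0.984, 2.95 and 3.99 CPM (4.71 ± 0.72, adjusted p = 6.5e-05). Il1rn, the interleukin 1 receptor antagonist, stood at 19, 11.6 and 20.1 CPM against 0.437, 0.766 and 0.836 CPM (4.44 ± 0.48, adjusted p = 1.4e-06). Replicate 2 was the lowest double knockout mouse for Ly6a and Il1rn, and all 3 were above every Control mouse. Areg, an EGF receptor ligand, stood at 66.7, 47.6 and 96.6 CPM against 7.27, 5.63 and 5.46 CPM (3.5 ± 0.42, adjusted p = 5.1e-06). Ereg (2.52 ± 0.38), a second such ligand, and Anxa1 (3.47 ± 0.47) were named after their values were seen. The YAP target Cyr61 rose by 2.11 ± 0.23 (adjusted p = 9.6e-07). The 2 called lower, named after their values were seen, were Spp1 (-1.31 ± 0.46, adjusted p = 0.027), which encodes osteopontin, and Birc3 (-0.45 ± 0.14, adjusted p = 0.017).

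The integrated stress response, the programme that Atf4 drives when amino acids run short or translation fails, was mixed. Of 35 measured genes 19 were higher and 4 lower, with a median of 0.40. Atf4 stood at 226, 231 and 209 CPM against 157, 155 and 160 CPM (0.50 ± 0.09, adjusted p = 0.00013). Sesn2, a brake on mTORC1 that p53 also drives, stood at 101, 143 and 119 CPM against 28.3, 31 and 32.3 CPM (1.98 ± 0.22, adjusted p = 1.5e-06). Ddit4, a second brake on mTORC1, rose by 1.70 ± 0.22 (adjusted p = 7.8e-06). Ddit3 (Chop), the death factor of this response, stood at 11.7, 11.2 and 13.4 CPM against 11.9, 12.4 and 9.74 CPM (0.09 ± 0.15, adjusted p = 0.65), and the groups overlapped. The serine synthesis enzyme Psat1 (1.31 ± 0.23) and the glycyl tRNA synthetase Gars (0.84 ± 0.10) rose, and Cth, which makes cysteine, fell by 1.35 ± 0.20 (adjusted p = 3.7e-05).

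Of 19 genes of the Notch pathway 6 were higher and 3 lower, with a median of 0.17. In all 47.4% of this list was called, near the 42.9% of all genes tested. The receptor Notch3 stood at 32.8, 36.1 and 44.6 CPM against 2.84, 3.56 and 3.64 CPM (3.46 ± 0.44, adjusted p = 7.9e-06), and the ligand Jag2 at 47, 52.4 and 60.7 CPM against 10.3, 8.26 and 9.79 CPM (2.49 ± 0.31, adjusted p = 7e-06). Notch1 (0.71 ± 0.18) and its target Hes1 (0.54 ± 0.13) rose by less. The ligand Dll1 stood at 20.4, 28.8 and 27.6 CPM against 44.3, 47.7 and 43.5 CPM (-0.82 ± 0.12, adjusted p = 3.3e-05), the target Nrarp fell by 0.87 ± 0.16, and the inhibitor Numb fell by 0.88 ± 0.15. Of the Nrarp transcript sequence 78.2% is shared with Gm38287, and from which of these genes the reads came was not tested. Atoh1, which Notch represses and secretory cells need, had a log2 fold change of -0.17 ± 0.15 (adjusted p = 0.39). In the network of Myc partners and rivals 1 of 13 was higher, Myc, and 6 were lower, with a median of -0.41; without double knockout replicate 3, 2 were higher. Mycn stood at 1.9, 1.29 and 1.6 CPM against 7.76, 6.24 and 8.22 CPM (-2.15 ± 0.26, adjusted p = 3e-06), and the Myc antagonist Mxd1 at 43.6, 30.1 and 62.5 CPM against 208, 143 and 75.2 CPM (-1.64 ± 0.44, adjusted p = 0.0066).

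Replication and division genes had medians near 0. Of 43 replication genes of S phase 10 were higher and 3 lower, with a median of 0.16. In all 30.2% of this list was called, under the 42.9% of all genes tested, of which 22.1% were higher. The summed level of the list was 3070, 2990 and 2210 CPM against 2100, 2370 and 2730 CPM, so the groups overlapped. The number higher depended on single libraries: 18 were higher without double knockout replicate 3, and 3 without double knockout replicate 1, without Control replicate 1 or with the compared libraries alone; 6 were higher without replicate 2 of either group. The helicase subunit Mcm2 stood at 188, 192 and 141 CPM against 95.1, 107 and 130 CPM (0.65 ± 0.15, adjusted p = 0.002), and the licensing factor Cdt1 at 92.4, 99.4 and 72.4 CPM against 55, 50.9 and 62.3 CPM (0.65 ± 0.15, adjusted p = 0.0013). E2f1, which drives these genes, stood at 19.9, 23.5 and 13.2 CPM against 19.2, 16.6 and 19.7 CPM (0.03 ± 0.20, adjusted p = 0.93). Other genes of the same phase were below Control: the repressor E2f8 stood at 31.8, 32.8 and 19.4 CPM against 60.8, 63.1 and 75.9 CPM (-1.25 ± 0.16, adjusted p = 6.1e-06), and thymidine kinase Tk1 fell by 0.89 ± 0.18 (adjusted p = 0.00057). Of 37 mitosis and division genes 1 was higher and 2 lower, with a median of -0.01. The one higher was Ect2, which starts cytokinesis (0.77 ± 0.20, adjusted p = 0.0044). The 2 lower were Cdca3 (-0.62 ± 0.18, adjusted p = 0.0083) and Mki67, the antigen of cycling cells, at 274, 272 and 180 CPM against 310, 392 and 424 CPM (-0.63 ± 0.16, adjusted p = 0.004). Without double knockout replicate 3, 4 division genes were higher, and without Control replicate 1, 4 were lower. Cyclin Ccnb1 had a log2 fold change of 0.10 ± 0.16 (adjusted p = 0.62).

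The E2F words TTCGCGC and TTGGCGC, on both strands, were found in 9 of 39 windows of the replication list (23.1%, exact 95% interval 11.1 to 39.3) against 3.1% of all windows, with windows for 34 of the 43 genes. The sites of 3 of them show the words. Of the 9 genes with a word, these are the 3 that were called higher.
Orc1, chr4:108579407-108579453, plus strand: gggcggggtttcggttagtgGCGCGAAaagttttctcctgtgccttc
Rfc3, chr5:151651209-151651237, minus strand: cggaagtgacgtcgcacgctTTCGCGCtc
Pola1, chrX:93632267-93632313, minus strand: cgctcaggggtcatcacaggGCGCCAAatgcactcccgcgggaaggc
GCGCGAA and GCGCCAA are the same words on the opposite strand. The changes of these genes were small. Origin protein Orc1 stood at 15, 13.9 and 12.1 CPM against 8.42, 10 and 9.4 CPM (0.56 ± 0.19, adjusted p = 0.022), and its call was lost without Control replicate 1 or double knockout replicate 1. The clamp loader Rfc3 (0.30 ± 0.10, adjusted p = 0.028) and the polymerase subunit Pola1 (0.30 ± 0.11, adjusted p = 0.039) overlapped between groups, and each call was lost in 5 alternatives.

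Markers of absorptive enterocytes varied widely within both groups, and the summed levels overlapped. Of 22 brush border genes 7 were lower and none higher, with a median of -0.99, and their summed level was 6900, 5150 and 13700 CPM against 26000, 15400 and 11700 CPM. Without double knockout replicate 3, 15 were lower, and with the compared libraries alone 5 were. The motor protein Myo1a stood at 397, 347 and 649 CPM against 1350, 984 and 873 CPM (-1.20 ± 0.26, adjusted p = 0.0012), without overlap. Lactase (Lct) stood at 93.4, 82.7 and 445 CPM against 1270, 465 and 331 CPM (-1.73 ± 0.93, adjusted p = 0.14), and alkaline phosphatase Alpi at 1070, 652 and 2190 CPM against 2550, 1620 and 1080 CPM (-0.42 ± 0.53, adjusted p = 0.55). Sucrase-isomaltase (Sis) fell by 2.22 ± 0.64 (adjusted p = 0.0097; 0.052 without Control replicate 1), and the peptidase Ace by 2.87 ± 0.68 (adjusted p = 0.0027). Of 15 lipid absorption genes 8 were lower and none higher, with a median of -1.48; 5 were lower with the compared libraries alone or without Control replicate 1 or double knockout replicate 1 or 2. Their summed level was 4790, 2960 and 10800 CPM against 22000, 14800 and 9880 CPM. Mttp, which loads lipid onto chylomicrons, stood at 357, 253 and 774 CPM against 2140, 1520 and 1170 CPM (-1.80 ± 0.42, adjusted p = 0.0023). The fatty acid binding protein Fabp1 stood at 349, 204 and 613 CPM against 1550, 1060 and 903 CPM (-1.59 ± 0.53, adjusted p = 0.023), and its call was lost without Control replicate 1 (0.084) and without double knockout replicate 1 (0.073) or 2 (0.098). Of 16 nutrient transport genes 10 were lower and 1 higher, the iron exporter Slc40a1, which was named after its values were seen and lost its call in 9 alternatives. The median was -1.39; 2 were lower with the compared libraries alone, and 6 without Control replicate 1 or double knockout replicate 1 or 2. The bile acid exporter subunit Ostb stood at 3.22, 1.44 and 6.35 CPM against 25.9, 15.9 and 10.4 CPM (-2.22 ± 0.48, adjusted p = 0.0013). The sodium glucose transporter Slc5a1 stood at 377, 358 and 793 CPM against 2170, 1080 and 767 CPM, and its call (-1.39 ± 0.50, adjusted p = 0.031) was lost in 5 alternatives. Of 20 genes of drug metabolism 13 were lower and none higher, with a median of -1.35; 8 were lower without double knockout replicate 1. The sulfotransferase Sult1d1 stood at 10.6, 14.4 and 37.7 CPM against 196, 173 and 147 CPM (-3.04 ± 0.47, adjusted p = 6.9e-05).

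Secretory lineages did not move alike. Of 20 goblet cell markers 12 were lower and none higher, with a median of -0.49, and their summed level was 5310, 6710 and 6930 CPM against 11700, 11300 and 10400 CPM. The gel mucin Muc2 stood at 630, 683 and 705 CPM against 1110, 1090 and 1000 CPM (-0.67 ± 0.14, adjusted p = 0.00057), and the trefoil peptide Tff3 at 367, 514 and 484 CPM against 805, 852 and 782 CPM (-0.84 ± 0.11, adjusted p = 1.1e-05). The groups did not overlap for either. Of 22 tuft cell markers 17 were lower and none higher, with a median of -1.31, and their summed level was 81.7, 148 and 96 CPM against 201, 235 and 225 CPM. The tuft cell kinase Dclk1 stood at 3.37, 12.1 and 5.81 CPM against 19.7, 28.4 and 23.3 CPM (-1.73 ± 0.32, adjusted p = 0.00033), and replicate 2 was again the highest double knockout mouse. Ptgs1, a prostaglandin synthase of tuft cells, fell by 1.68 ± 0.26 (adjusted p = 4.4e-05). Of 28 enteroendocrine markers 11 were lower and 1 higher, with a median of -0.46. In all 42.9% of this list was called, the same share as of all genes tested. The hormone Gip stood at 63.8, 91.4 and 85.6 CPM against 238, 180 and 172 CPM (-1.29 ± 0.15, adjusted p = 2.1e-06), and the granule protein Chga at 62.2, 92.1 and 59.9 CPM against 149, 92.6 and 129 CPM (-0.79 ± 0.17, adjusted p = 0.00096). Neurog3, which commits cells to this lineage, had a log2 fold change of 0.48 ± 0.29 (adjusted p = 0.20). The marker called higher was the lectin Reg4, named after its values were seen, at 412, 406 and 435 CPM against 203, 209 and 203 CPM (1.03 ± 0.20, adjusted p = 4e-04). Of 18 Paneth cell markers 3 were higher and 1 lower, with a median of -0.04; 4 were lower without double knockout replicate 2. Lysozyme (Lyz1) stood at 5290, 8570 and 5700 CPM against 4290, 7700 and 7150 CPM (0.03 ± 0.26, adjusted p = 0.94). The phospholipase Pla2g2a, 1 of the 3 higher, stood at 202, 134 and 145 CPM against 20.2, 46.2 and 32.4 CPM (2.28 ± 0.30, adjusted p = 1.3e-05).

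Cells other than epithelium were represented by immune, stromal and red cell markers. Of 27 immune markers 18 were lower and 3 higher, with a median of -1.47, and the summed level was 196, 247 and 216 CPM against 443, 755 and 821 CPM. Of the 15 markers of T cells and intraepithelial lymphocytes 14 were lower. Cd3e, a chain of the T cell receptor complex, stood at 4.93, 5.6 and 5.28 CPM against 20.9, 28.1 and 36.9 CPM (-2.42 ± 0.25, adjusted p = 5e-07), and granzyme Gzmb at 15.5, 12.6 and 13.4 CPM against 49.6, 80 and 90.1 CPM (-2.39 ± 0.33, adjusted p = 2.1e-05). Among the markers called higher were Cd68 (0.76 ± 0.21), of macrophages, and Cd79a, of B cells, named after their values were seen. Cd79a overlapped between groups. In this list 1 marker was higher without a filter, with the compared libraries alone and without Control replicate 1 or 2 or double knockout replicate 2 or 3. Of 13 stromal, endothelial, muscle and glial markers 1 was higher and 2 lower, with sums of 26.2, 56.3 and 33.4 CPM against 35.6, 35.9 and 36.8 CPM. The one higher, the glial S100b (1.5 ± 0.51, adjusted p = 0.021), was not called without double knockout replicate 3 or Control replicate 1 or 2, and the number lower was 1 without replicate 1 of either group. Lyve1, a lymphatic receptor, fell by 1.45 ± 0.19 (adjusted p = 7.3e-06). None of 5 red cell markers was called, with a median of -1.29. The part of these cells in the other results was not tested.

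Of 7 MHC class II genes 4 were higher, with a median of 1.67, but none was without double knockout replicate 3. The invariant chain Cd74 stood at 245, 111 and 407 CPM against 41.5, 53.1 and 103 CPM (1.95 ± 0.62, adjusted p = 0.018; 0.082 without that library). The count was 2 without Control replicate 1 or with the compared libraries alone, and 1 without Control replicate 2. Of 30 interferon response genes 4 were higher and 1 lower, with a median of 0.57 and sums of 722, 608 and 1500 CPM against 757, 902 and 939 CPM. Without double knockout replicate 3 none was higher and 7 were lower. The number higher was 0 without Control replicate 1, 2 without Control replicate 2, 7 without double knockout replicate 1 and 10 without replicate 2, and 2 were lower without Control replicate 1. The antiviral gene Rsad2 stood at 5.45, 3.3 and 24.6 CPM against 3.33, 2.3 and 4.13 CPM (1.73 ± 0.56, adjusted p = 0.018; 0.42 without replicate 3). Irf1, the gene called lower, stood at 92.8, 69.7 and 71.5 CPM against 131, 130 and 143 CPM (-0.78 ± 0.14, adjusted p = 0.00019). Of 23 genes of cholesterol synthesis and uptake 3 were higher and 5 lower, with a median of -0.06. None was higher with the compared libraries alone, and 1 was without Control replicate 2 or 3 or double knockout replicate 1. Insig1, a sterol sensor, stood at 61.3, 63.9 and 74.3 CPM against 198, 133 and 124 CPM (-1.19 ± 0.28, adjusted p = 0.0024).

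The single losses were measured in the same experiment. All comparisons at day 1 share mice: ApccKO, NlecKO and the double knockout are each set against the same 3 Control mice, and the double knockout mice enter each test against a single loss, so the values are given side by side. Against Control, ApccKO had 8226 genes called (49.7%) and NlecKO 411 (2.48%). Wnt targets had a median of 1.51 in ApccKO (22 higher) and 0 in NlecKO (none called), beside 1.59 in the double knockout. Large subunit assembly factors had medians of 0.60 and -0.04, beside 0.64. Targets of p53 had medians of 0.08 in ApccKO (9 higher, 7 lower) and 0.69 in NlecKO (21 higher, none lower), beside 1.40. Of all genes tested, 24.7% were higher and 25% lower in ApccKO, and 0.87% higher and 1.61% lower in NlecKO. The ApccKO counts of p53 targets rest on few libraries: 2 were higher and 3 lower without Control replicate 1, and 3 higher and 4 lower without ApccKO replicate 1. Replication genes of S phase had medians of 0.73 in ApccKO (40 higher) and -0.60 in NlecKO (26 lower), beside 0.16. Fetal genes had medians of 1.18 (12 higher, 2 lower) and 0.61 (none called), beside 2.82. The NlecKO counts move with the libraries used: over the alternatives 4 to 25 p53 targets were higher and 1 to 36 replication genes lower there.

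**Figure D4:**
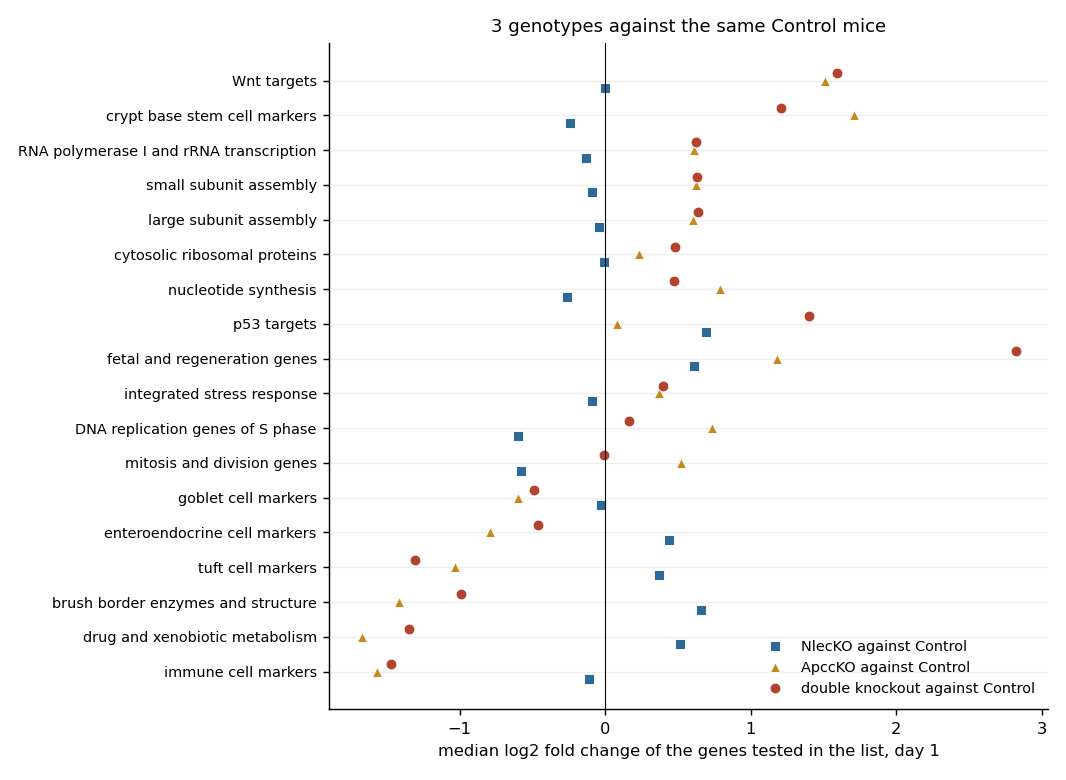
Median log2 fold change of the tested genes of 18 lists at day 1, for NlecKO (squares), ApccKO (triangles) and double knockout (circles), each against the same 3 Control mice. In the Wnt and assembly lists the circle lies beside the triangle, in the p53 and fetal lists it lies to the right of both other symbols, and in the replication list it lies between them.

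Tested directly against ApccKO, the double knockout differed in 1762 genes (10.6%), 972 higher (5.87%) and 790 lower (4.77%), so this comparison reads what the loss of Nle1 adds where Apc is gone. The count was 621 without double knockout replicate 3, 582 with the compared libraries alone, and 1017, 1144 and 944 without ApccKO replicate 1, 2 and 3. Of the 35 p53 targets 31 were higher and none lower, with a median of 1.33, and 28 to 31 were higher in every alternative. Cdkn1a was higher by 2.12 ± 0.21 (adjusted p = 5.2e-06), Dcxr by 1.92 ± 0.14 (1.7e-07) and Ephx1 by 1.78 ± 0.16 (7.1e-07), and Phlda3 by 2.34 ± 0.37 (8e-04). Fas, near its Control level in the double knockout, was higher than in ApccKO by 1.73 ± 0.27 (adjusted p = 0.00041), and in ApccKO itself it was lower than in Control (-1.78, adjusted p = 3.1e-05). Of the 23 fetal genes 12 were higher and none lower; 7 were without double knockout replicate 3, and 5 with the compared libraries alone. Ly6a was higher by 2.55 ± 0.62 (adjusted p = 0.015), Areg by 1.82 ± 0.38 (0.0057), Il1rn by 1.81 ± 0.40 (0.0075) and Clu by 1.34 ± 0.41 (0.045), and of these the calls of Areg and Il1rn held in all alternatives. Of the 43 replication genes 35 were lower and none higher, with a median of -0.56; 9 were lower without double knockout replicate 3 and 13 with the compared libraries alone. E2f1 was lower by 1.05 ± 0.20 (adjusted p = 0.0021), a call that held in all alternatives. Of the 37 division genes 20 were lower, and 3 without double knockout replicate 3. Stem cell markers were lower in 7 of 24 and higher in 1, with Olfm4 at -1.09 ± 0.24 (adjusted p = 0.0077), Lgr5 at -0.93 ± 0.25 (0.023) and Smoc2 at -0.75 ± 0.19 (0.015); 1 of 24 was lower without double knockout replicate 3 and 10 without replicate 2. No Pol I gene or small subunit factor was called in either direction, and 1 of 42 large subunit factors was higher. Of 78 ribosomal proteins 11 were higher and none lower, with a median of 0.24; leaving out any single library gave 1 to 4, the compared libraries alone gave none, and DESeq2 gave 18.

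The genes farthest from ApccKO were mostly not in the lists. Mcam was higher by 3.31 ± 0.40 (adjusted p = 8e-05), Crip2 by 3.07 ± 0.45 (0.00039), Gna15 by 3.2 ± 0.48 (0.00039) and the glutamate receptor subunit Gria3 by 3.39 ± 0.59 (0.0013). The Gα subunit Gna15 stood at 9.34, 9.9 and 13.3 CPM in the double knockout and 0.656, 1.53 and 1.43 CPM in Control. Klhl32 was lower by 3.68 ± 0.62 (adjusted p = 0.0011), and stood at 0.759, 1.48 and 0.907 CPM against 16, 18.5 and 18.5 CPM in Control (-3.95 ± 0.62, adjusted p = 7.2e-05). The adenylyl cyclase Adcy1 was lower than in ApccKO by 3.27 ± 0.57 (adjusted p = 0.0012) and stood at its Control level (0.03 ± 0.59). The secreted Wnt antagonist Sfrp5 stood at 4.6, 11 and 4.21 CPM against 39.8, 23.3 and 30.5 CPM in Control (-2.22 ± 0.48, adjusted p = 0.0012), and was lower than in ApccKO by 2.21 ± 0.48 (adjusted p = 0.007). Nle1 completed the 4, at -1.94 ± 0.16 (adjusted p = 5.2e-07). Against NlecKO 8708 genes were called (52.6%), 4674 higher (28.2%) and 4034 lower (24.4%), and by the same rule the leading genes were those that led against Control: Msx1, Aqp5, Gulo and Rps3a higher, and Car4, Amph, Ugt2b5 and Reg1 lower. Nle1 itself was higher in the double knockout than in NlecKO by 0.78 (adjusted p = 0.00074). Of the p53 targets 24 were higher than in NlecKO and 2 lower, with a median of 0.57.

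Whether both losses together gave more or less than the sum of each alone was tested as an interaction on the log2 scale. It was called for 2 of 16552 genes (0.0121%), while 1058 had an unadjusted p under 0.05; DESeq2 called 51, and the other alternatives 0 to 7. Meg3, an imprinted long noncoding RNA, stood at 18.4, 14.2 and 26.2 CPM in the double knockout and 1.15, 2.02 and 1.67 CPM in Control, with 2.85 ± 0.29 against ApccKO (adjusted p = 4.6e-06). Mxd4, a Myc antagonist, stood at 51.3, 56.7 and 52.3 CPM against 59, 65.9 and 58.2 CPM in Control and was higher than in ApccKO by 0.78 ± 0.09 (adjusted p = 3.8e-05). A gene without this call is not shown to be additive.

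At day 2 the same comparison, in other mice, had 8946 genes called (54%), 4525 higher (27.3%) and 4421 lower (26.7%). On both days 6077 genes were called, 6058 of them in the same direction, which is 85.3% of the day 1 calls and 67.7% of the day 2 calls, and 19 in opposite directions. Across the 16552 genes, which are not independent, the log2 fold changes of the days had a Pearson r of 0.857 and a Spearman rho of 0.826. The median of the p53 targets was 1.40 at day 1 and 2.10 at day 2, that of the fetal genes 2.82 and 4.39, and that of the large subunit factors 0.64 and 0.90. Of 22 tuft cell markers 17 were lower at day 1 and 22 at day 2. Stem cell markers were higher in 21 and lower in none at day 1, and higher in 16 and lower in 3 at day 2. Counts and medians set side by side are no test of a change between days. A difference between the days was tested for each gene and called for 114 (0.689%), 67 of them higher at day 2 relative to day 1 (0.405%) and 47 lower (0.284%). The split moved with the libraries used: 74 were higher and 120 lower without double knockout replicate 3 of day 1, 11 and 17 without its replicate 2, and 66 and 76 with a filter of 2 CPM in 3 libraries. The difference was called for none of the 22 tuft cell markers or the 42 large subunit factors, for 2 of 35 p53 targets and 1 of 23 fetal genes, all higher, and for 2 of 24 stem cell markers, both lower. Olfm4 went from 0.71 to -1.86, and Notum from 2.89 to 5.58. Klhl32, nearly absent from the double knockout mice of day 1, had a log2 fold change of -0.31 at day 2 (adjusted p = 0.71). Its difference between days was not called (adjusted p = 0.077).

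**Figure D5:**
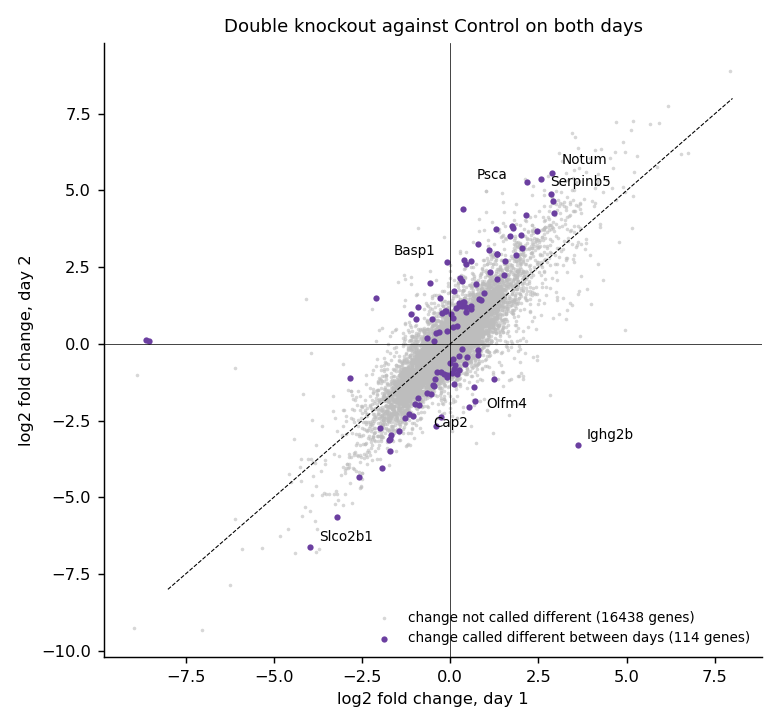
Each point is 1 of 16552 genes, with its log2 fold change, double knockout against Control, at day 1 on the horizontal axis and at day 2 on the vertical axis; the dashed line marks equal change. The 114 purple points were called different between days, among them Olfm4 below the line and Notum and Psca above it.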

How the data were processed

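The series holds 24 libraries of crypt RNA from the jejunum, with 3 mice in each of 8 groups. The authors deposited estimated counts per gene in a table of the whole series, made with kallisto 0.43 per the submitters' processing notes, which also list mm9, DESeq and DESeq2; the annotation release is not given in the sources used here. TPM values, which the authors deposited beside the counts and which correct for transcript length, served only to compare levels between genes; the normalised table was not used. Columns were matched to samples by source name, and groups taken from titles. The estimated counts were rounded, scaled by TMM and tested with edgeR 4.0.16 in R 4.3.3 (robust quasi-likelihood fit of all 24 libraries with a mean for each group, 16 residual degrees of freedom, prior count 2). Genes had to pass filterByExpr with a minimum count of 10, and p values were adjusted by Benjamini and Hochberg over the 16552 genes tested, which held at least 99.92% of the counts in each library. The biological coefficient of variation was 17.6%. Library totals ran from 17.86 to 26.47 M counts, which limits the precision of genes with few counts.

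The comparison is fixed by the labels, while the 29 gene lists, the tests and the rule for names were chosen with earlier results of these data known. Named genes are Nle1, Apc, the 10 most raised and 10 most lowered genes against Control (called, at least 5 CPM in the higher group, no overlap between libraries, no provisional or Y-linked symbol), 4 and 4 in the other comparisons without the condition on overlap, and in each list the fixed anchors and up to 4 members with the smallest p. Of 742 list entries 737 were found in the file and 722 were tested. Sharing of reads was judged by the share of a gene's sequence words also found in transcripts of other genes (GENCODE vM21). Promoter windows and their coordinates come from RefSeq on GRCm38.p6 and were matched by symbol; no coordinate of mm9 was used. Replicates are separate mice as far as titles and codes show, which is not stated outright. Replicate numbers were not taken to pair the groups: the correlations of deviations between double knockout and Control mice of the same number were -0.022, 0.051 and -0.322 at day 1 and 0.218, 0.219 and 0.039 at day 2, so that not every one was over 0.1. Alternatives were DESeq2 1.42.0, its size factors in edgeR, no filter beyond a total of 1 count, a filter of 2 CPM in 3 libraries, a replicate block, the compared groups alone and each library left out. The scripts were tested on simulated data. Some genes that the rule names are not reported here.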

Additional observations from a re-analysis of the deposited data

Results flagged for a closer look

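The test of an interaction at day 1 gave 2 genes in which the loss of Nle1 changed the level by a different amount with and without Apc. Meg3 had an interaction of 2.67 on the log2 scale (adjusted p = 0.041), and Mxd4 one of 0.83 (adjusted p = 0.041). The call of Meg3 was lost in 13 alternatives and that of Mxd4 in 12.

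The test of the day gave 8 named genes whose change in the double knockout against Control differed between day 1 and day 2. Higher at day 2 relative to day 1 were the Wnt inhibitor Notum (difference 2.7), Psca (3.09), Serpinb5 (2.81) and Basp1 (2.73). Lower were Olfm4 (-2.56), Cap2 (-2.61), Slco2b1 (-2.62) and the antibody gene Ighg2b (-6.91). Calls of Olfm4, Psca and Cap2 were kept in all alternatives, and the calls of the other 5 were lost in some. Ighg2b stood at 1.66, 13.4 and 8.69 CPM in the double knockout mice of day 1 and at 0.273, 0.274 and 1.08 CPM in Control. It encodes an antibody chain, which plasma cells make, and their part in this difference was not tested.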

How the results depend on the processing

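The count of genes called between double knockout and Control stayed within 5078 to 7243, and 5691 to 7243 with each library left out. The replicate block gave 7030; the mice share only a number, and at day 1 no double knockout mouse correlated best with the Control mouse of its own number, while at day 2 all 3 did. Against ApccKO the count was 582 with the compared libraries alone and 621 to 2172 with a library left out. For the interaction it was 51 with DESeq2, 0 with its size factors in edgeR, 0 with the stricter filter, 0 with the replicate block, 1 with the compared libraries alone and 0 to 7 with a library left out. For NlecKO against Control it was 805 with DESeq2, 266 without a filter, 21 with the compared libraries alone and 31 to 1189 with a library left out. For the day difference it was 423 with DESeq2, 70 without a filter, 72 with the replicate block, 70 with the compared libraries alone and 28 to 194 with a library left out. The cause of these moves was not tested, except that the compared libraries alone are fewer samples. Of the 266 named genes 226 were called against Control, 184 of them in every alternative. The direction of Ifit3, an interferon gene named after its values were seen, turned from 1.44 to -0.02 (adjusted p = 0.97) without double knockout replicate 3, and was 1.88 without replicate 2. Counts of list members against Control gave 696 values under the alternatives, of which 76 moved by over 1.5 times or to or from 0. The median log2 fold change of all genes had an absolute value of at most 0.048 in every comparison and alternative. A fit of estimated counts does not show how far reads were split between gene copies.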
